A study of Homo sapiens with 19 samples.

Results

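The genes described here are 10 genes whose transcription is known to follow BMP receptor signalling through SMAD1, SMAD5 and SMAD9: ID1, ID2, ID3, ID4, SMAD6, SMAD7, SMAD9, BAMBI, MSX1 and MSX2. They were chosen by name, and every probe whose RefSeq identifier belonged to one of them was taken. All 10 were found among the 20503 genes matched to a probe, 8 of them by 1 probe and ID2 and SMAD9 by 2, and all 10 were among the 16697 genes that passed the filter on dim probes.

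RNA of the human embryonic stem cell line KhES-3 was measured at 19 time points from 3 to 72 h after the cells were moved into a serum-free medium that directs them towards brown adipocytes. Every array carried the same treatment, with BMP4 and KITLG at 20 ng/ml, IGF-II and VEGFA at 5 ng/ml and FLT3LG and IL-6 at 2.5 ng/ml in low-attachment dishes, and the arrays differed only in the hour of harvest. No array at 0 h and none without BMP4 was analysed, so the values show the course of these genes in the presence of BMP4 and not their response to it. Each time point had 1 array of 1 cell line, so how far repeated cultures would differ is not known, and each trend was set against the residual scatter of the arrays. The labels describe growth on irradiated mouse embryonic fibroblasts before induction, whereas the study's methods describe a feeder-free culture. The 6 arrays from 3 to 12 h lay on a first slide, the 8 arrays from 14 to 42 h on a second and the 5 arrays from 48 to 72 h on the third, which was scanned on a later day. A slide therefore follows time, and changes across the border between slides cannot be told apart from the slide. RNA came from whole cultures, in which fewer cells of a type and less RNA per cell cannot be told apart.

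BMP ligands such as BMP4 bind a pair of receptor kinases, which phosphorylate SMAD1, SMAD5 and SMAD9. These join SMAD4 and enter the nucleus, where the genes that respond soonest include the ID genes and the pathway's own inhibitors. The signal is thus damped by its own products: SMAD6 and SMAD7 block receptors and SMADs from within the cell, and BAMBI is a pseudoreceptor without a kinase. In human embryonic stem cells, BMP4 is known for driving cells out of pluripotency towards mesoderm, amnion and trophoblast.

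ID1, ID3, ID4, SMAD7 and BAMBI had their highest signals in the first 6 h, and these genes, ID2 and SMAD6 were lowest between 24 and 36 h and higher again on the last arrays. Signals are given in arbitrary units after scaling every array to a common 75th percentile of 871. When RNA spiked into the samples set the scale instead, the return of some genes was absent or did not last: ID2, ID4, SMAD7 and BAMBI were lower at 72 h than at 24, 28 and 36 h. Of the 10 genes, 7 changed over time by a spline of hours with 3 degrees of freedom (limma, adjusted p under 0.05), namely ID1, ID2, ID3, ID4, SMAD6, SMAD7 and BAMBI. In the same test 77.1% of all 32113 probes changed, so that count alone does not set the genes apart. The lowest of the 19 arrays lay between 24 and 36 h for 8 of the 10 genes, all 7 of these and MSX1, against 12.9% of all tested probes. That window was chosen after these minima were seen. With the spike-in RNA the 32 h array was lowest for all 7, and without that array ID1 and ID3 alone of the 7 had their lowest array in the window.

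**Figure D1:**
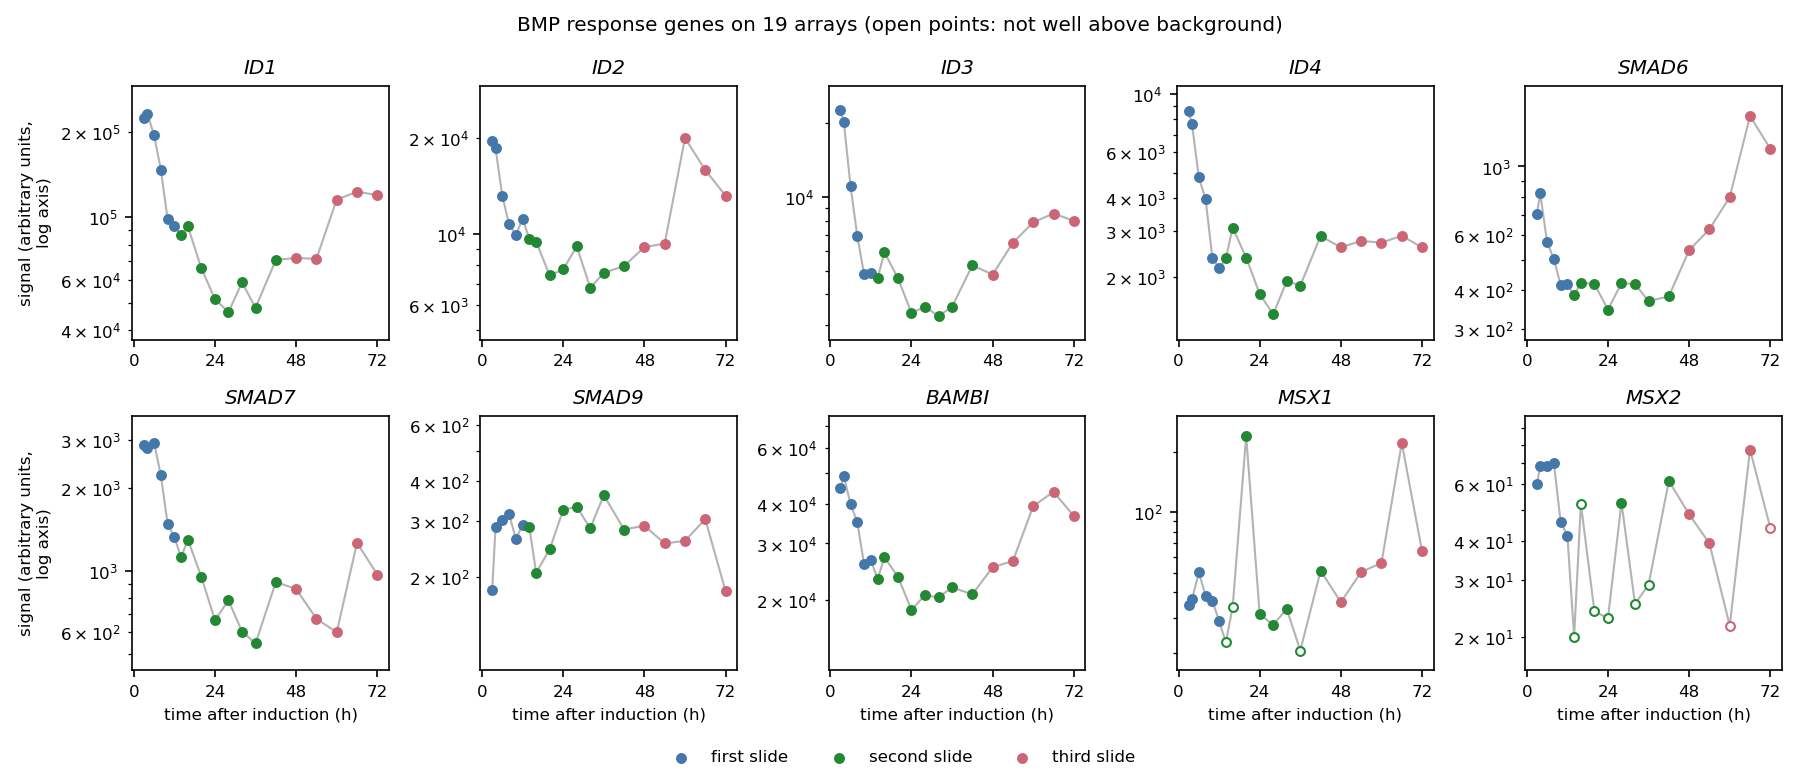
Signal of each gene (arbitrary units, log axis) against hours after induction on the 19 arrays, with colours for the 3 slides and open points for arrays where the probe was not well above background. ID1 to ID4, SMAD6, SMAD7 and BAMBI are high at 3 to 6 h and lowest between 24 and 36 h, SMAD9 stays between 181 and 362, and MSX1 has isolated high values at 20 and 66 h.

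The ID genes encode small helix-loop-helix proteins that lack a DNA-binding region and hold E proteins away from DNA. ID1 (NM_002165) had signals of 223325, 232017, 194829.9, 147253, 98786 and 93056 at 3, 4, 6, 8, 10 and 12 h. On the second slide it read 86882, 92862, 66073, 51601, 46346, 59017, 48067 and 70795 at 14, 16, 20, 24, 28, 32, 36 and 42 h. On the third slide it read 71954, 71442, 115566, 123046 and 119843 at 48, 54, 60, 66 and 72 h. The arrays at 3 to 6 h were above all others, the 28 h array was lowest, and the arrays from 60 h on lay above all of those from 10 to 54 h, which with the spike-in RNA held for the 60 h array alone. From the mean of the arrays at 3, 4 and 6 h to the lowest array ID1 fell by 2.22 on the log2 scale. The mean at 60, 66 and 72 h differed from that first mean by -0.86, and neither difference was tested. The change of any shape over the 19 arrays passed the test (limma spline, adjusted p = 1.84e-08).

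ID3 (NM_002167) had the steepest fall within the first slide. Its signals were 22750.2, 20252, 11072, 6923, 4842 and 4873 at 3, 4, 6, 8, 10 and 12 h. It then stayed between 3265 (32 h) and 5954 (16 h) on the second slide and read 4826, 6509, 7889, 8565 and 7999 at 48, 54, 60, 66 and 72 h. The 10 and 12 h arrays were already far below the 4 before them, and no later array came back to the level of 3 to 6 h. From 4 to 6 h alone ID3 changed by -0.87 on the log2 scale, a step that 4.43% of tested probes exceeded in size.

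ID4 (NM_001546) also fell on the first slide and had the largest negative change of the ID genes between the first and last 3 arrays. Its signals were 8584, 7668, 4812, 3975, 2378 and 2170.4 at 3, 4, 6, 8, 10 and 12 h, its lowest was 1446 at 28 h, and from 42 to 72 h it lay between 2601 and 2880.2. Those 6 late arrays were nearly level on the percentile scale, but not with the spike-in RNA, where ID4 read 3327 at 54 h and 1476 at 72 h. The mean of the 3 latest arrays differed from that of the 3 earliest by -1.32 on the log2 scale.

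ID2 (NM_002166) had its highest signal late on this scale. Its signals were 19642, 18576, 13175, 10750.3, 9929 and 11170.3 at 3, 4, 6, 8, 10 and 12 h, and 6793 at its lowest, at 32 h. It then read 9105, 9344, 20018, 15889 and 13194 at 48, 54, 60, 66 and 72 h. The 60 h array was thus the highest of all 19, just above that at 3 h, but with the spike-in RNA ID2 read 21316, 18922 and 7488 on the 3, 60 and 72 h arrays, and its late minus early change was -0.07 on the percentile scale and -0.71 on the spike-in scale. The step of 1.1 on the log2 scale from 54 to 60 h was exceeded in size by 2.35% of tested probes, and the second ID2 probe moved from 4604 to 9958 between the same arrays.

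BAMBI (NM_012342), the pseudoreceptor, also fell on the first slide, was lowest on the second and was higher again on the last 3 arrays. Its course was not tested against those of the ID genes. Its signals were 44657, 48693, 39931, 34955, 25812 and 26597 at 3, 4, 6, 8, 10 and 12 h, lay between 18558 (24 h) and 27136 (16 h) on the second slide, and read 25270.2, 26451, 39297, 43570.2 and 36605 at 48, 54, 60, 66 and 72 h. The last 3 arrays overlapped with the first 3, and their means differed by -0.16 on the log2 scale. With the spike-in RNA the last 3 arrays all lay below the first 3, and the difference was -0.80. Over the 19 arrays the log2 signals of ID1, ID3 and BAMBI correlated with Pearson's r of 0.93 for ID1 and ID3, 0.92 for ID1 and BAMBI and 0.91 for ID3 and BAMBI. The highest r among the 10 was 0.95, for ID3 and ID4, with 0.92 for ID2 and BAMBI and 0.91 for ID1 and ID4. These values share the same arrays and the same scaling.

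As examples of genes that moved together, chosen after their values were seen, ID1, ID3 and BAMBI are shown by the 250 bases before their transcription starts (RefSeq, GRCh38.p14, each read 5′ to 3′ on the strand of its gene, ID1 at chr20:31605039-31605288 on the plus strand, ID3 at chr1:23559502-23559751 on the minus strand and BAMBI at chr10:28677271-28677520 on the plus strand). Capitals mark 2 motifs that SMAD complexes are known to bind, GGCGCC, which reads the same on both strands, and CAGAC, which is GTCTG on the other strand.
ID1: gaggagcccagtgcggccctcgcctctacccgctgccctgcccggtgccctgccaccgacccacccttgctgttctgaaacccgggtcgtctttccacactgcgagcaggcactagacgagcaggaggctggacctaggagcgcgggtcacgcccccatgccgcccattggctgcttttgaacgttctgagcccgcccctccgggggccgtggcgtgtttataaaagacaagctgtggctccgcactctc
ID3: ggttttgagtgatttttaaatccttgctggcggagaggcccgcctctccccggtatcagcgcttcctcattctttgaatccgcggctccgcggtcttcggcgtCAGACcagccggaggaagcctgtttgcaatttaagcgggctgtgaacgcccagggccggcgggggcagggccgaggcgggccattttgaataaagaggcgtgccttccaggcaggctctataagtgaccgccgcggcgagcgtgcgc
BAMBI: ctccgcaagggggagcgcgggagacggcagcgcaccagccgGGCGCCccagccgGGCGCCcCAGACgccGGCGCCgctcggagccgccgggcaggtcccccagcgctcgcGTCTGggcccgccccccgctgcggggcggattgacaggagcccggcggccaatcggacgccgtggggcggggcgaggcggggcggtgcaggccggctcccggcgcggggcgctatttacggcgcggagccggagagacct
The BAMBI window holds 3 GGCGCC and 2 CAGAC matches, none of them overlapping, the ID3 window holds 1 CAGAC, and the ID1 window holds neither run of letters. Of the 10 genes, which have 12 such windows (3 for SMAD7), 1 had GGCGCC and 4 had CAGAC in any of its windows. Of 35114 promoter windows of the same length, each taken singly, 16.4% held GGCGCC, 38.0% CAGAC and 5.6% both, as did the window of BAMBI. A match is a description of the letters, and binding was not measured on these arrays.

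The inhibitory SMADs differed in their last levels against their first. SMAD7 (NM_005904), which blocks BMP and activin receptors alike, had signals of 2874, 2807, 2919, 2236, 1486 and 1327 at 3, 4, 6, 8, 10 and 12 h. It read 1121, 1300.2, 950.5, 662, 782, 602, 545 and 912 from 14 to 42 h, and 860.2, 669.9, 599, 1266 and 971 from 48 to 72 h. The plateau to 6 h was followed by a fall to 545 at 36 h, and of the arrays from 24 h on, those at 66 and 72 h alone lay above the 20 h array, which with the spike-in RNA neither did (726 and 551, against 1105). SMAD7 was the 1 gene of the 10 whose slope on hours passed the test below 0, where 22.4% of all probes did. Its slope was -0.0226 log2 units an hour (limma, standard error 0.00632, adjusted p = 0.00556), fitted to a course that was not a straight line. With the slide as a fixed block, its slope was -0.018 (adjusted p = 0.405), no longer past the threshold.

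SMAD6 (NM_005585), which acts mainly on BMP signalling, ended above its start on the percentile scale. Its late minus early change was 0.67 on the log2 scale there and 0.02 with the spike-in RNA. Its signals were 706, 819, 571, 503, 417 and 418 at 3, 4, 6, 8, 10 and 12 h and lay between 346 (24 h) and 423 (16 h) on the second slide. It then read 538, 628, 797, 1453 and 1140.2 at 48, 54, 60, 66 and 72 h, so that the 66 and 72 h arrays were above every earlier array. With the spike-in RNA neither was (833 and 647, against 929 at 4 h). From 60 to 66 h SMAD6 and SMAD7 both had higher signals, by 0.87 and 1.08 on the log2 scale (0.14 and 0.36 with the spike-in RNA), and the difference between their courses was not tested. SMAD6 was the 1 gene of the 10 whose slope on hours passed the test above 0, where 30.9% of all probes did. Its slope was 0.0134 log2 units an hour (limma, standard error 0.0052, adjusted p = 0.0368), fitted to a course that first fell. With the slide as a fixed or a random block, its slope was 0.0109 or 0.0129 (adjusted p = 0.57 and 0.146), no longer past the threshold. Without any 1 of the arrays at 10, 12, 60, 66 or 72 h the slope was 0.0131, 0.0131, 0.0127, 0.00843 or 0.01 (adjusted p = 0.0524, 0.0517, 0.068, 0.175 and 0.159), and over the arrays from 3 to 54 h the slope was -0.00511 (adjusted p = 0.455). When control RNA spiked into the samples set the scale, as given further on, it was 0.00492 (adjusted p = 0.427).

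SMAD9 (NM_005905), a receptor-regulated SMAD that BMP signalling is also known to induce, did not share this course. Its signal was 182 on the 3 h array, 362 at its highest (36 h) and 181 on the 72 h array, with all other arrays between 207 and 333. The first and last arrays were the lowest and those in between had no clear order (spline adjusted p = 0.158). Its second probe was also highest at 36 h (129.5) and lowest at 72 h (37.9), where it was not well above background.

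MSX1 and MSX2 encode homeobox repressors of the neural border, limb and heart, and both were near the detection limit. MSX1 (NM_002448) was well above background on 16 arrays, with signals of 239.5 at 20 h and 221 at 66 h and between 20.6 and 63.9 on the other 17. The array before the first of these, at 16 h, was not well above background, and the 24 h array was back at 31.1. Single arrays thus carried both high values (spline adjusted p = 0.164). Without the 20 h array MSX1 rose, at 0.0193 log2 units an hour (adjusted p = 0.0164). MSX2 (NM_002449) was well above background on 11 arrays. It lay between 60.4 and 70.2 at 3 to 8 h, and between 20 and 77.1 on the arrays after that, 8 of which were not well above background (spline adjusted p = 0.061). With the array median, the spike-in RNA or normexp its change passed the test (adjusted p = 0.0114, 0.0299 and 0.00624).

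The shape was then tested within slides, where a change of slide cannot enter. On the first slide, from 3 to 12 h, 5 of the 10 genes fell (limma, 1 fit with a slope for each slide), where 2.34% of all probes fell. None of the 10 rose there, where 2.31% of all probes rose. ID3 had the steepest slope, -0.275 log2 units an hour with a standard error of 0.035 (adjusted p = 0.000872), and only 0.128% of tested probes had a lower one. ID4 fell by 0.235 per hour (adjusted p = 0.00189), ID1 by 0.162 (adjusted p = 0.0133), SMAD6 by 0.107 (adjusted p = 0.0171) and BAMBI by 0.104 (adjusted p = 0.0139). SMAD7 (-0.137, adjusted p = 0.078) and ID2 (-0.107, adjusted p = 0.0826) did not pass the threshold. On the second slide none of the 10 had a slope that passed the test, and 16% of all probes did, in either direction.

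On the third slide, from 48 to 72 h, SMAD6 rose by 0.0563 log2 units an hour with a standard error of 0.00952 (adjusted p = 0.000949) and BAMBI by 0.0298 (adjusted p = 0.0275), where 8.75% of all probes rose. None of the 10 fell there, and 11.5% of all probes fell. ID1 had a slope of 0.0376 that did not pass the test (adjusted p = 0.0645), and ID4 one of 0.00105 (adjusted p = 0.973). Without the 66 and 72 h arrays, which had the lowest 75th percentiles, 0 of the 10 passed the test as rising on the third slide, against 0.679% of all probes, and SMAD6 and BAMBI had slopes of 0.0473 and 0.0531 over the 3 arrays left (adjusted p = 0.151 and 0.162). On the first slide 7 then fell, where 2.8% of all probes fell, ID2 and SMAD7 being added to the 5.

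**Figure D2:**
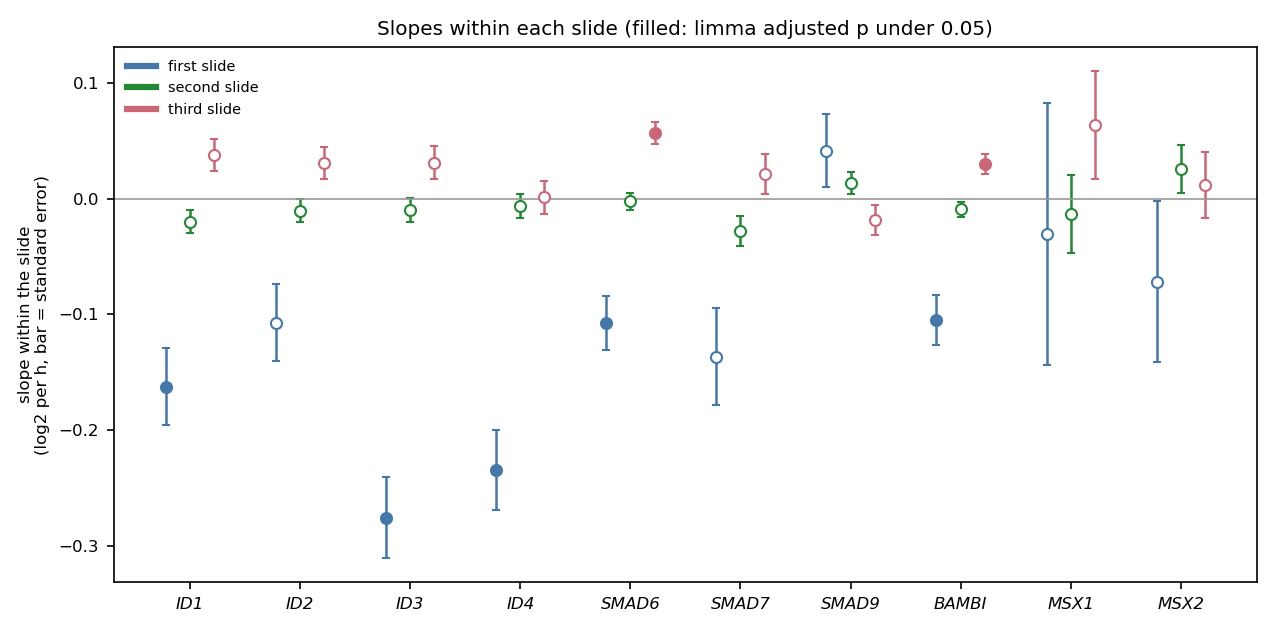
Slope of log2 signal per hour of each gene within the first, the second and the third slide, with the standard error as the bar and filled points where the limma adjusted p was under 0.05. The slopes of ID1, ID3, ID4, SMAD6 and BAMBI are below 0 on the first slide, none passes the test on the second, and those of SMAD6 and BAMBI are above 0 on the third.

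A quadratic term in hours, a test chosen after seeing the data, gave the bend of the whole course. It passed the test above 0 in 7 of the 10 genes (ID1 to ID4, SMAD6, SMAD7 and BAMBI), where 17.1% of all probes bent upwards. None of the 10 passed the test below 0, where 23.1% of all probes did, and the term of SMAD9 was -0.60 (adjusted p = 0.0522). For ID1 and ID3 only 0.258% and 0.249% of tested probes had a higher term. With the slide as a fixed block, 6 of the 7 still passed the test, where 6.51% of all probes did, and ID4 had a term of 1.48 against 1.85 without the block (adjusted p = 0.144).

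How much of the late return is seen depends on the scaling. The 66 and 72 h arrays had 75th percentiles of 655 and 655, the lowest of the 19, against 968 at 3 h, and dividing by a low percentile raises every gene of an array. Scaled to the RNA spiked into each sample as a control, ID1 read 242359.8 (3 h), 61136 (28 h), 43515 (32 h), 54997 (36 h), 109239 (60 h) and 68013 (72 h). BAMBI read 48464, 27274, 14982, 25006, 37146 and 20774 on the same 6 arrays, and SMAD6 read 766, 556, 308, 422, 754 and 647. All 3 were lower at 28, 32 and 36 h than at 3 h and higher again at 60 h on this scale, and SMAD6 ended below its 3 h value. SMAD7 at 60 h and ID4 at 72 h lay below their arrays at 28 and 36 h, SMAD7 with 1031, 624 and 566 at 28, 36 and 60 h and ID4 with 1907, 2128 and 1476 at 28, 36 and 72 h. The 32 h array had a higher spike-in signal than its neighbours (a mean log2 of 14.00, against 13.43 at 28 h and 13.64 at 36 h), and its values were the lowest of the 3 in each gene. With this scaling ID1, ID3 and ID4 fell on the first slide, where 0.202% of all probes fell, and SMAD6 and BAMBI had slopes there of -0.115 and -0.112 that did not pass the test (adjusted p = 0.173 and 0.245). None of the 10 rose on the third slide, where 0.252% of all probes rose and the slopes of SMAD6 and BAMBI were 0.0051 and -0.0213. ID4 and SMAD9 fell there (adjusted p = 0.0126 and 0.00244), as did 74.2% of all probes, so that these falls do not set them apart. The bend passed the test above 0 in 5 genes (ID1, ID3, SMAD6, SMAD7 and BAMBI) and below 0 in SMAD9, against 1.49% of all probes above and 50.7% below 0. In SMAD9 the change of any shape then passed the test (adjusted p = 0.00247).

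**Figure D3:**
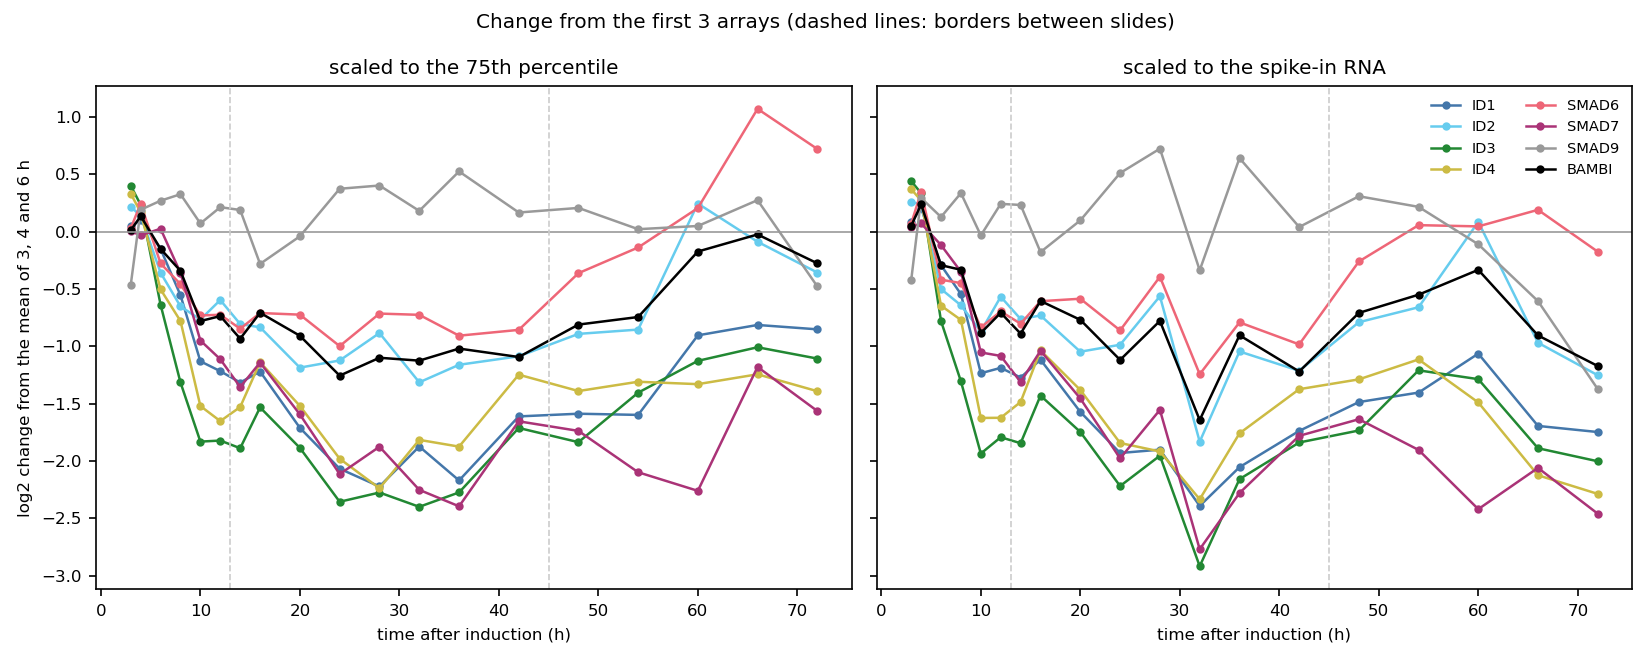
Log2 change of 8 genes from the mean of their 3, 4 and 6 h arrays against hours after induction, scaled to the 75th percentile (left) or to the spike-in RNA (right), with dashed lines between slides. The fall to 12 h is present in both panels for all but SMAD9, and the values at 66 and 72 h lie lower on the right.

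Between the 3 earliest and the 3 latest arrays, the log2 change on the percentile scale was -1.67 for SMAD7, -1.32 for ID4, -1.08 for ID3, -0.86 for ID1, -0.65 for MSX2, -0.16 for BAMBI, -0.07 for ID2, -0.05 for SMAD9, 0.67 for SMAD6 and 1.21 for MSX1. With the spike-in RNA it was 0.02 for SMAD6 and 0.56 for MSX1, and negative for all other genes of the 10. With 1 array left out in turn, the smallest changes on the percentile scale lay between -0.24 and 0.08 for ID2, -0.28 and 0.16 for SMAD9, and -0.23 and -0.09 for BAMBI, so that those of ID2 and SMAD9 had no settled sign. That of MSX1 was 0.58 without the 66 h array, and that of MSX2 was -1.09 without the 66 h array and -0.18 without the 60 h array, the 60 and 72 h arrays of MSX2 being not well above background. The median of the 10 was -0.40 and that of all tested probes was 0.13. With the array median as the scaling these were -0.77 and -0.24, and with the spike-in RNA -1.05 and -0.52. A scaling shifts all probes of an array alike, so the distance between both medians is the same by construction.

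Other genes of the pathway had mixed courses. Among the receptors and SMAD transducers, 12 of 13 were tested, and none fell on the first slide, where 2.34% of all probes fell and BMPR1A, a type I receptor, rose (0.057, limma adjusted p = 0.048). SMAD1, the transducer itself, fell over the whole course, from 2254 and 2969 at 3 and 6 h to 1842, 1318 and 1006 at 20, 54 and 72 h (slope -0.0176, limma adjusted p = 2.85e-08). RGMA, a coreceptor (-0.0129, adjusted p = 0.000704), and ACVR1, a type I receptor (-0.00856, adjusted p = 0.00139), also fell. These were the 3 of the 12 that fell over the whole course, where 22.4% of all probes fell, so that count does not set the list apart. RGMB, a coreceptor, rose (0.00539, adjusted p = 0.0185), where 30.9% of all probes rose. Its late minus early change was -0.35 with the spike-in RNA. ACVRL1, the endothelial type I receptor, was well above background on 10 arrays and on none of the first 3, so that it passed the filter through the arrays where it was high, and its highest signal was 86.9 at 54 h. BMPR1B was well above background on none. Of the 12, 5 had a bend that passed the test below 0 and none one that passed above 0, where 23.1% and 17.1% of all probes did.

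Of the ligands and antagonists, 12 of 13 were tested, and 2 rose and 5 fell, where 30.9% of all probes rose and 22.4% fell. CER1, a secreted antagonist of BMP and NODAL, fell most, from 137, 158 and 190.2 at 3, 4 and 6 h to 23.1, 69 and 13.5 at 60, 66 and 72 h (slope -0.0448, adjusted p = 4.19e-05). It was well above background on 1 of the 3 latest arrays. GREM1, another antagonist (-0.0229, adjusted p = 1.59e-05), the ligand BMP7 (-0.00991, adjusted p = 0.000177) and BMP4 itself (-0.00785, adjusted p = 0.0489) also fell, as did FST, which binds activin and BMPs (-0.00691, adjusted p = 0.0111). The cells' own BMP4 signal was 454 on the first array, 679 at its highest (16 h), 255 at its lowest (32 h) and 317 on the last. The antagonists BMPER and CHRD rose with slopes of 0.0126 (adjusted p = 0.0241) and 0.00527 (adjusted p = 0.0426), though with the spike-in RNA the late minus early change of CHRD was -0.54 and that of BMPER 0.49, against 1.14 on the percentile scale. Among 8 genes of SMAD turnover and corepression, SKI (0.0102, adjusted p = 0.000237) and TOB1 (0.00653, adjusted p = 0.0216) rose, with late minus early changes of -0.15 and -0.12 with the spike-in RNA, and NEDD4L, a ubiquitin ligase, fell (-0.0107, adjusted p = 9.17e-05).

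Other genes known to respond to BMP had in part the same course. Of 12 listed, 11 were tested, and 6 had a bend that passed the test above 0 (17.1% of all probes) and none one that passed below 0 (23.1% of all probes). One of the 6 was DLX5, which passed the filter on 5 arrays where it was high (86.2 at 3 h and 68.6 at 66 h among them), so that its bend carries no weight. HEY1, a repressor also under Notch control, read 693, 647, 336, 189.8, 142 and 156 at 3, 4, 6, 8, 10 and 12 h, 40.4 at its lowest (48 h), and 190.1, 224 and 146 at 60, 66 and 72 h. It fell by 0.278 log2 per hour on the first slide (adjusted p = 0.0123) and rose by 0.0924 on the third (adjusted p = 0.0108). Of all probes, 2.34% fell on the first slide and 8.75% rose on the third. The third-slide rises of HEY1 and GATA3 are given on the percentile scale alone. With the spike-in RNA 0.252% of all probes rose there, and the late minus early change of HEY1 was -2.18, against -1.53 on the percentile scale. GATA2, a factor of blood, trophoblast and amnion, fell by 0.318 on the first slide (adjusted p = 0.00977), from 352 at 3 h to 60.2 at 12 h, and read 23.7 at 24 h, where it was not well above background. GATA3, a related factor, had a slope of -0.157 on the first slide that did not pass the test (adjusted p = 0.0962), and it rose on the third (0.0676, adjusted p = 0.0346). Its late minus early change was 0.06 on the percentile scale and -0.59 with the spike-in RNA. VENTX, a homeobox gene, read 996, 456 and 2447 at 3, 16 and 72 h and rose over the whole course (0.0163, adjusted p = 0.0108), with a late minus early change of 0.78 on the percentile scale and 0.13 with the spike-in RNA. HAND1, a factor of early mesoderm and extraembryonic tissue, rose as well (0.0461, adjusted p = 8.07e-05). It read 47.8 on the 3 h array and 17.8 on the 10 h array, where it was not well above background, and 641 on the 66 h array. CDX2, a trophoblast and posterior gene, fell (-0.0187, adjusted p = 0.047), with 27.4, 168 and 11.8 on the 60, 66 and 72 h arrays. At 60 and 72 h it was not well above background. Of the 11, 2 rose and 2 fell over the whole course, where 30.9% of all probes rose and 22.4% fell.

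**Figure D4:**
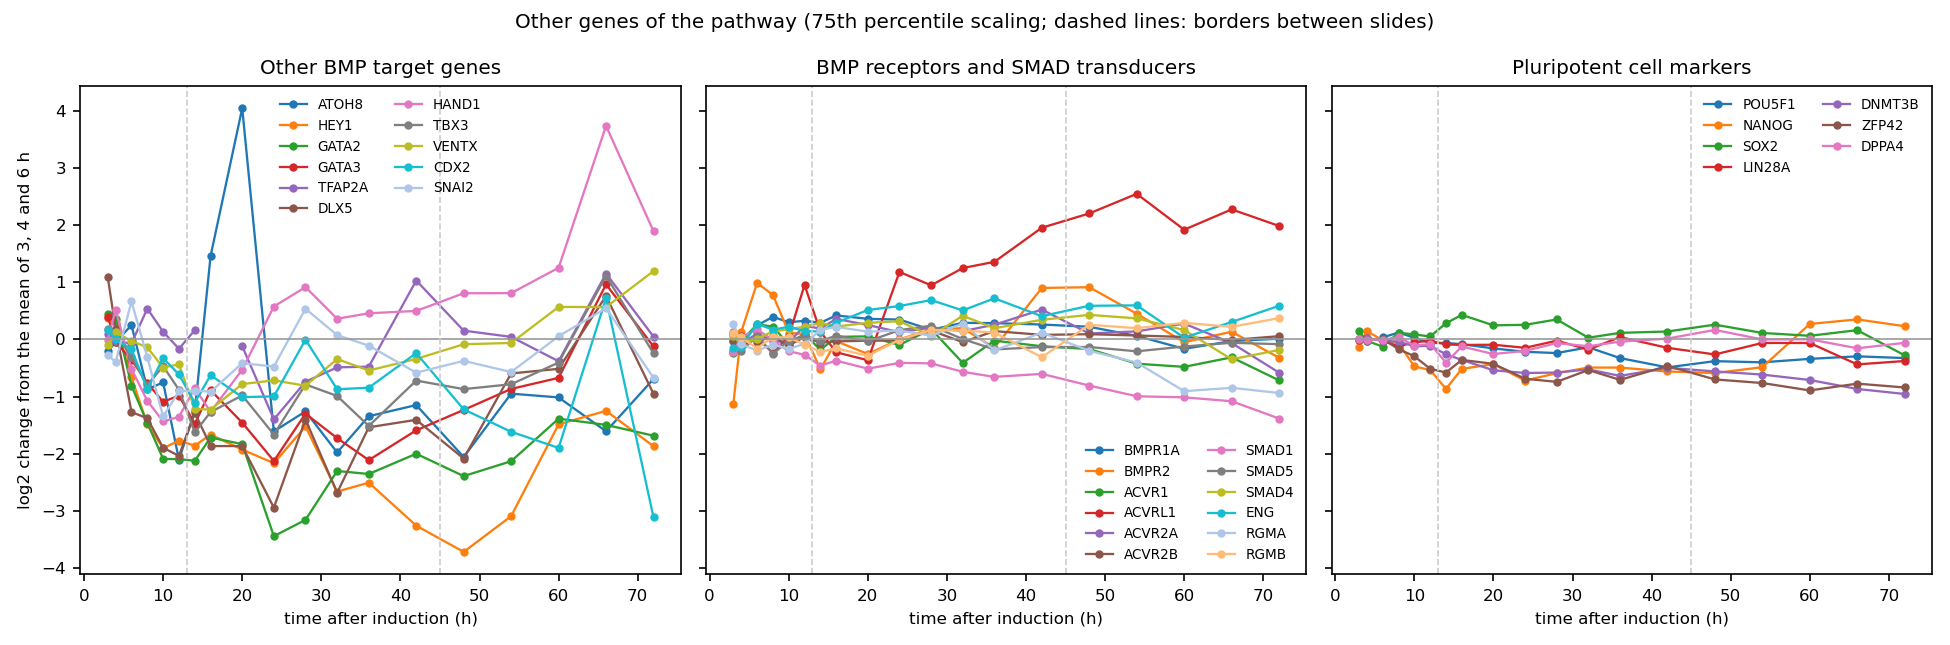
Log2 change from the mean of the 3, 4 and 6 h arrays against hours after induction for all tested genes of 3 lists, with dashed lines between slides and gaps where a spot was left out. Several BMP target genes (left) fall in the first 12 h, the receptors and SMADs (middle) other than ACVRL1 stay within about 1 log2 unit or decline slowly, and the pluripotent cell markers (right) change by less than 1 log2 unit.

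The array at 66 h had the lowest 75th percentile and was the highest of the 19 for some genes of these lists. It was so for none of 12 receptors and SMAD transducers, 6 genes of the activin and NODAL branch and 3 E proteins. It was so for 5 of 11 other BMP target genes (GATA3, TFAP2A, HAND1, TBX3 and CDX2), for 3 of 5 primitive streak markers (TBXT, EOMES and MESP1) and for SMAD6 and MSX2, against 11% of all tested probes, and also for NANOG, GAPDH and RPLP0, which were well above background on every array. It was also so for 3 of 12 ligands and antagonists (BMP6, CHRD and BMPER) and for COL1A2. Of 8 genes of SMAD turnover and corepression, it was so for SKI and PPM1A. With the spike-in RNA it was the highest for HAND1, EOMES and MESP1 of these, for none of the 10 and for 0.286% of all tested probes, and SMAD6 and MSX2 were then highest at 4 h. On the percentile scale TBXT read 295 at 66 h and 33.7 at 60 h, EOMES, MESP1 and GATA3 read 372, 637 and 322 at 66 h, and the 72 h array was lower in each. MESP1 was the 1 primitive streak marker of 5 that rose over the whole course (0.0309, adjusted p = 2.23e-05), where 30.9% of all probes rose. The part of this 1 array in the late values was not tested beyond leaving it out, as given above.

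The E proteins that ID proteins hold back were also measured. TCF4 (-0.0155, adjusted p = 1.76e-07) and TCF3 (-0.013, adjusted p = 1.09e-06) fell, and TCF12 did not pass the test (-0.00234, adjusted p = 0.303). Of all probes, 22.4% fell over the whole course. TCF3 read 18918.6 as the mean of the first 3 arrays and 11271 as that of the last 3. In the activin and NODAL branch, which runs through SMAD2 and SMAD3, LEFTY1, NODAL and LEFTY2, its secreted ligand and antagonists, fell over the whole course. Their slopes were -0.0368, -0.0368 and -0.0359 log2 per hour (limma adjusted p = 0.000362, 0.000865 and 1.67e-08), and none of the 3 passed the test on the first slide. In this list 3 of 6 tested genes had a bend that passed the test above 0, as in the ID genes, where 17.1% of all probes did: NODAL (2.8, adjusted p = 6.69e-05), PMEPA1 (2.21, adjusted p = 0.000844) and LEFTY1 (1.87, adjusted p = 0.0124). NODAL read 558 at 60 h and 2301 at 66 h.

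The labelled cell type was checked by its markers. Of 8 pluripotent cell markers, 7 had a matched probe, and all 7 (POU5F1, NANOG, SOX2, LIN28A, DNMT3B, ZFP42 and DPPA4) were well above background on every array. Of these DNMT3B, ZFP42, POU5F1 and LIN28A fell, with slopes of -0.0125, -0.0109, -0.00661 and -0.00392 log2 per hour (adjusted p = 1.78e-06, 8.18e-05, 0.000259 and 0.0142), where 22.4% of all probes fell. Of the 7, 3 had a bend that passed the test above 0, namely NANOG, POU5F1 and ZFP42 (adjusted p = 0.000262, 0.0296 and 0.0344), and SOX2 had one below 0 (-0.42, adjusted p = 0.0252), where 17.1% and 23.1% of all probes did. NANOG went from a mean of 30663 on the first 3 arrays through 16834 at 14 h to 37373 on the last 3. Its late minus early change was 0.29 on the percentile scale and -0.36 with the spike-in RNA. Among fibroblast markers, which a feeder layer could add, LUM and COL3A1 were well above background on 1 array each and POSTN on 2, while COL1A1, COL1A2 and THY1 were so on all 19. DCN was so on 9, which included the 3 earliest arrays and none of the 3 latest, and its slope did not pass the test (-0.00695, limma adjusted p = 0.292). COL1A2 rose (0.00638, adjusted p = 0.000163), with a late minus early change of -0.28 with the spike-in RNA, and PDGFRB fell (-0.0146, adjusted p = 0.00071). THY1, which embryonic stem cells also carry, was lowest at 36 h (12254) and had a bend above 0 (adjusted p = 1.16e-05). Of 8 housekeeping genes, B2M and GAPDH rose (0.0145 and 0.00816, adjusted p = 1.7e-06 and 1.54e-05), with late minus early changes of 0.17 and -0.12 with the spike-in RNA, and 5 fell, HPRT1 (-0.0135) and YWHAZ (-0.0081) most, where 30.9% of all probes rose and 22.4% fell. The part of cell composition in the course of the ID genes was not tested.

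Finally, genes were ranked by their likeness to 3 of the 10, as Pearson's r of log2 signals over the 19 arrays with the 10 left out. The 5 genes most like ID1 were GART, SAP30BP, PANK1, DCAF1 and GRHL3, each with an r of 0.96. GRHL3, a factor of surface epithelium, went from a mean of 1923 on the first 3 arrays to 371 at 36 h and 802 on the last 3. Most like SMAD7 were SERTAD4 (0.97), SFXN4, AP3M1, YARS2 and MACROH2A1, and most like MSX2 were C2orf42 (0.84), ZNF286A, GJA4, FAM20C and COL4A1. MSX2 was well above background on 11 of the 19 arrays, so its ranking rests in part on values near background. Among the 10 themselves, r to ID1 was 0.93 for ID3, 0.92 for BAMBI, 0.91 for ID4, 0.87 for SMAD7, 0.84 for ID2, 0.60 for SMAD6, 0.56 for MSX2, 0.15 for MSX1 and -0.40 for SMAD9. Of 13967 genes compared, 32 had a higher r to ID1 than ID3 and 44 a higher one than BAMBI. All of these values share the arrays, the slides and the scaling.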

How the data were processed

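RNA of KhES-3 cells was measured on 19 one-colour Agilent arrays, 1 per time point. The authors deposited, per array, the output of Agilent Feature Extraction 10.10.1.1 (version per the submitters' processing notes) with a background-subtracted intensity per spot, not scaled between arrays, and flag columns (other values, 0 or 1) as deposited. They also deposited a table of the same intensity times 1 factor per array (0.9051 to 1.3777), blank where a spot was not well above background; the rule behind the factors is not given in the sources used here. Of 62976 spots per array, 61657 were not controls. Flagged spots (0.632%) were left out, none was saturated, spots of a probe were averaged, and 28174 of 50683 probes were matched through RefSeq accessions (GRCh38.p14). Each array's 75th percentile (655 to 1003) was subtracted on the log2 scale. A gene was represented by its probe with the highest mean. Between 49.6% and 64.7% of probes were well above background per array, and precision is limited by having 19 arrays.

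The tool for slopes and splines was limma 3.58.1 (R 4.3.3; lmFit, eBayes, Benjamini-Hochberg adjustment, threshold 0.05), tested on simulated data. It was run on the 32113 probes that at least 5 arrays showed well above background. Tables and figures used Python 3.11.15, numpy 2.4.6, pandas 2.3.3 and matplotlib 3.10.9. Early and late windows are geometric means of 3 different hours each, not of replicates.

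Named are the 10 genes, members of the lists that passed the slope on hours (up to 4 per list by size), the pluripotent cell markers, and the 5 genes most like ID1, SMAD7 and MSX2; other genes named were chosen after their values were seen. One gene that this rule names is not reported here. The genes, lists and tests were chosen with earlier results of these data known. Alternatives were the array median or spike-in RNA (7 of 10 levels) as scaling, normexp (offset 50) with quantile normalization, the deposited table, other filters and time scales, the slide as a block, fewer arrays, and each array left out. The quadratic term and the fits without the 66 and 72 h or the 14 and 16 h arrays were added after seeing the data.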

Additional observations from a re-analysis of the deposited data

How the results depend on the processing

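The change of any shape was called in 7 to 9 of the 10 genes under each alternative that tests it (log2 hours and the Spearman correlation test slopes alone), in 7 of 8 tested where all arrays had to be well above background, and in 7 or 8 with each array left out in turn. In that test 77.1% of all probes were called in the report's setting. The straight slopes were less stable. The count rising, 1 in the report (SMAD6), was 0 with the array median, spike-in RNA or normexp, the deposited table, no filter, log2 hours, the slide as a fixed or random block, the arrays from 3 to 54 h, a Spearman correlation, without 66 and 72 h and without 14 and 16 h, and 0 to 2 with each array left out (2 without 20 h, MSX1 being added). The count falling, 1 in the report (SMAD7), was 3 with spike-in RNA, 4 with log2 hours, 5 from 3 to 54 h, 2 without 66 and 72 h and 0 with the slide as a fixed block. Of all 32113 probes, 11186, 7131, 6627, 6699 and 1434 fell in the same settings, in that order, against 7207 in the report. Third-slide rises, 2 in the report, were 1 with the array median, 0 with spike-in RNA and 0 without 66 and 72 h (SMAD6 and BAMBI with slopes of 0.0473 and 0.0531 there), third-slide falls 2 and first-slide falls 3 with spike-in RNA, and bends that passed the test below 0 were 1 with spike-in RNA. The cause of these differences was not tested, except that fewer arrays entered where arrays were left out.

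Of all probes, 4678 rose and 11117 fell with the array median (29.6% of calls rising against 57.9% in the report's setting), 1485 and 11186 with spike-in RNA (11.7%), 1513 and 1434 with the slide as a fixed block (10551 changed in any shape) and 5582 and 4710 as a random block, and leaving out an array gave 9301 to 10286 rising, 6734 to 7244 falling and 23403 to 24654 of any shape.

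Slopes near 0, and the larger one of SMAD6, changed sign. That of ID2 (0.000542) was -0.00472 with the array median, -0.00792 with spike-in RNA, -0.000439 with the deposited table, -0.108 per log2 hour, -0.00235 and -1.4e-05 with the fixed and random block, -0.0174 from 3 to 54 h (adjusted p = 0.0133), -0.00618 without 66 and 72 h, -6.99e-05 without 14 and 16 h, and -0.198 as Spearman's rho, and -0.00311 to 0.00356 with an array left out. That of SMAD9 (-0.00116) was 0.0183 per log2 hour, 0.00449 and 0.000235 with the fixed and random block, 0.00377 from 3 to 54 h, 0.00215 without 66 and 72 h, and -0.00325 to 0.0024 with an array left out. That of BAMBI (-0.000147) was 0.00338 with normexp and -0.00338 to 0.00235 with an array left out, that of MSX2 0.0158 and 0.00128 with the fixed and random block, and that of SMAD6 -0.00511 from 3 to 54 h. The late minus early change of MSX2 was 0.17 in the deposited table, where values not well above background are blank. No paired analysis was possible because there was a single array per hour. Without replicates and with MSX1 and MSX2 near background, small changes of these were not detectable.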

Other observations

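MSX1 was not alone in its isolated value at 20 h. ATOH8, a helix-loop-helix factor known as a BMP target, read 655 at 20 h and 109 at 16 h, was between 34.3 and 47.1 at 3 to 6 h, and was not well above background on any other array. Of the genes in the lists, MSX1 and ATOH8 were the 2 whose 20 h signal was at least 4-fold above both neighbouring arrays, as was that of 95 of all tested probes (0.296%). The 14 and 16 h arrays next to it had 257 and 154 such probes, and the lowest shares of probes well above background, 49.6% and 52.0%. Both genes were singled out after their values were seen, and the part of these arrays in the peaks was not tested.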
